A study of Mus musculus with 2 samples.

Results

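The nuclear genes for the respiratory chain and the mitochondrial ATP synthase were compared between 2 sorted cell populations of the mouse small intestinal lamina propria, dendritic cells and eosinophils. Members were genes named by a single-gene probe set whose updated symbol starts with Nduf, Uqcr, Atp5 or Cox4 to Cox8, together with Sdha, Sdhb, Sdhc, Sdhd, Cycs and Cyc1. The choice used gene names and no measured value. It gave 86 genes, read by 160 probe sets, of the 12393 genes named on the array.

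Both populations came from unstimulated C57BL/6 mice aged 8 weeks. Dendritic cells were gated as CD11c+MHCII+ and eosinophils as CD11b+CD11c(int)MHCII-SiglecF+, and RNA of each was hybridised to 1 expression array. How many animals were sorted for each array was not stated in the labels. With 1 array for each population there was no replicate error, so no p-value was computed, and each difference describes these 2 arrays. In bulk RNA such as this, fewer cells of a type and less RNA per cell cannot be told apart.

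The respiratory chain passes electrons from nutrients to oxygen through protein complexes of the inner mitochondrial membrane. Complex I takes electrons from NADH and complex II from succinate, complex III hands them to the soluble carrier cytochrome c, and complex IV gives them to oxygen. The proton gradient that complexes I, III and IV build drives complex V, the ATP synthase. Most subunits are encoded in the nucleus, while a small core of complexes I, III, IV and V is encoded in mitochondrial DNA, and complex II is wholly nuclear. No mitochondrially encoded gene was named by a probe set used here, so all values below are of nuclear transcripts.

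Signals are the authors' MAS5 intensities, 1 per probe set, and are called units here. The median over the pooled signals of the arrays, 134.7 units, served as a floor, and signals under it were raised to it. A gene was counted as measured when at least 1 array lay above the floor, and where the dimmer array lay under the floor the fold is written "at least", since it can only be bounded from below. The 95th percentile of genes of germ cells, lens, hair and other foreign tissues was 191 units, so a fold with its dimmer side between 134.7 and 191 units may be a lower bound too. Differences are log2 eosinophil signal minus log2 dendritic cell signal. The brightest probe set of a gene stood for it. The pooled SD between probe sets of 1 gene was 0.57 for the members (99 probe sets of 40 genes) and 0.73 over all genes, the only spread these arrays allow.

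The sort markers followed the labels, with Siglecf at 6977 units for eosinophils against 112 for dendritic cells, and H2-Aa at 155 against 34015 units. Of 9 eosinophil marker genes on the array, 7 were measured and all 7 were brighter on the eosinophil array. Of 15 dendritic cell marker genes, 14 were measured and all 14 were brighter on the dendritic cell array. Of 9 macrophage genes, 6 were measured, 5 of them brighter on the dendritic cell array. Their summed signal was 7106 units there against 2226 units, mostly from Cd14, Cd68 and Csf1r at 2641, 2573 and 1121 units. Mertk went the other way, at 59.1 units in dendritic cells and 258 in eosinophils, and Cx3cr1, C1qc and Fcgr1 did not reach the floor. T cell genes summed over 8 genes to 4612 units for dendritic cells against 717 for eosinophils. Most of the dendritic cell sum came from Cd8a at 3732 units, which some dendritic cells also express. Cd3e gave 557 units in dendritic cells and 336 in eosinophils, and the other 6 did not reach the floor. Of 11 epithelial genes, 6 were measured, 4 of them brighter on the eosinophil array. Epcam gave 336 units in dendritic cells and 433 in eosinophils, and Krt18 gave 60.7 and 870 units. The part of such cells in the results below was not tested. The median signal was 122 units for dendritic cells and 148 units for eosinophils. The 3' to 5' signal ratio was 6.58 and 9.81 for the Gapdh controls and 9.0 and 6.38 for the actin controls, on the dendritic cell and eosinophil arrays in that order.

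Respiratory chain and ATP synthase transcripts were mostly brighter on the dendritic cell array. Of 86 members, 82 were measured, 77 of them above the floor on both arrays, and 36 were brighter in dendritic cells by at least 2-fold while 6 were brighter in eosinophils by that much, a distance called past 2-fold here. Those are 43.9% and 7.32% of the measured members, beside 15.5% and 19.0% of the 7994 measured genes. At 4-fold, 8 members were brighter in dendritic cells and 1 in eosinophils, where 5.35% of all measured genes passed in each direction. The median difference of the measured members was -0.59, and that of all measured genes was 0.16. Restricting the count to the 77 members above the floor on both arrays gave 35 and 5 at 2-fold, where 16.8% and 20.3% of 5389 genes passed, and 8 and 1 at 4-fold, where 5.08% and 5.40% passed, dendritic cells first.

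These counts follow the authors' global scaling of the arrays. The hybridisation spike controls were 2.06-fold brighter on the eosinophil array, and centring on them turned the 36 and 6 members into 57 and 1, with a member median of -1.63 and an all-gene median of -0.62. Under each of 13 alternatives of scale, floor, probe set and membership, the members' median minus that of all genes lay between -1.01 and -0.56. Not all of these could change it. Centring on medians, housekeeping genes or spike controls shifts all genes alike and acts on this contrast only through the floor. Placing Ndufa4 with complex I leaves it as it was. Quantile normalization and loess, which can change it, gave -0.61 and -0.56.

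**Figure D1:**
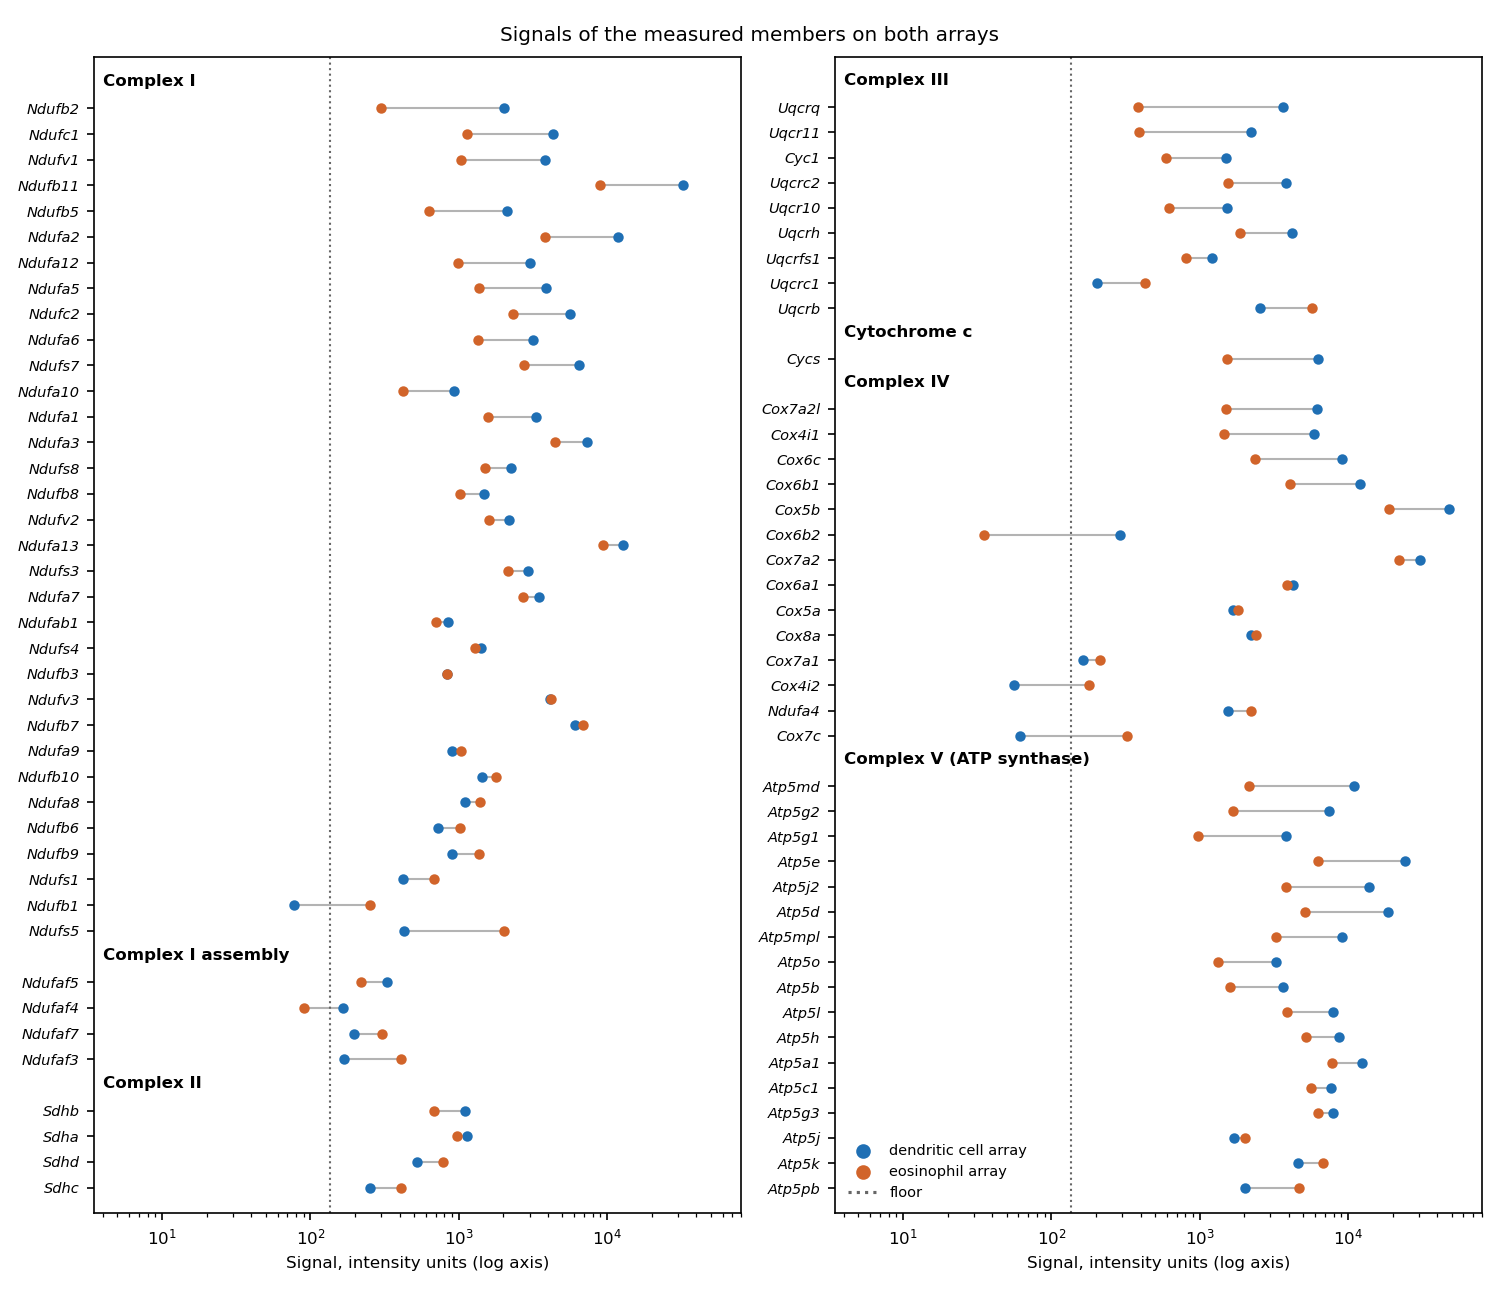
Signal of each measured member on the dendritic cell array (blue) and the eosinophil array (orange), in intensity units on a log axis, grouped by complex and sorted by difference; the dotted line is the floor of 134.7 units. In complexes III and V and for cytochrome c most blue points lie to the right of the orange ones, and Ndufs5 shows the widest gap the other way.

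Probe sets of 1 gene mostly pointed the same way. Of the 36 members past 2-fold on the dendritic cell side, 20 had more than 1 measured probe set. All probe sets were brighter in dendritic cells for 19 of these 20, and all were past 2-fold for 11. The exception was Cox5b, whose dimmest measured probe set differed by 0.26. Probe sets of the types _s_at and _x_at can match transcripts of more than 1 gene. Without them 31 of the 36 were measured and 29 stayed past 2-fold. On the eosinophil side 5 of the 6 were measured and 5 stayed past it. Of the 6 members past 2-fold on the eosinophil side, only Uqcrb and Atp5pb had a second measured probe set. Among all 43 members with more than 1 measured probe set, 7 had probe sets on both sides of 0.

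Complex I had 33 members on the array, all measured. Of these, 13 (39.4%) were past 2-fold on the dendritic cell side and 1 (3.03%) on the eosinophil side. All measured genes passed at 15.5% and 19.0%, in that order. The median difference of complex I was -0.46. Of 6 core subunits on the array, 5 were brighter in dendritic cells, 2 of them past 2-fold. Ndufv1, the subunit that binds NADH and flavin, gave 3818 units in dendritic cells against 1038 units in eosinophils, 3.68-fold apart, with its 3 probe sets from -2.01 to -0.98. Ndufs7, an iron-sulphur subunit at the quinone site, gave 6459 and 2755 units, a 2.34-fold difference, and its other probe set differed by -0.37. The remaining core subunits were under 2-fold apart. Ndufs1, the largest iron-sulphur subunit, leaned the other way at 423 units in dendritic cells against 680 units in eosinophils, 1.61-fold. Ndufv2, Ndufs3 and Ndufs8 differed by -0.46, -0.44 and -0.59. For Ndufv2 the other probe sets reached -2.14, and for Ndufs8 the 6 probe sets ran from -0.72 to 0.80, so neither gene had a settled size.

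The accessory subunits of complex I held its extremes. Ndufb2, of the membrane arm, gave 2020 units in dendritic cells against 301 units in eosinophils, 6.71-fold apart, and its second probe set differed by -1.43. Ndufc1 followed at 4306 and 1136 units (3.79-fold), and Ndufb11, which is X-linked and needed for assembly of the membrane arm, at 32667 and 8905 units (3.67-fold). All probe sets of these 3 genes were past 2-fold on that side. In the matrix arm, Ndufa2 (11825 against 3797 units, 3.11-fold) and Ndufa12 (3015 against 982 units, 3.07-fold) were also brighter in dendritic cells. Ndufc2, of the membrane arm, gave 5577 against 2318 units (2.41-fold), with its other measured probe set at -0.18.

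Ndufs5 was the largest eosinophil excess among the members. This accessory subunit of the intermembrane space side gave 430 units in dendritic cells against 2006 units in eosinophils, 4.67-fold. A further probe set that the annotation assigns to both Ndufs5 and its pseudogene, and that was left out of the members for that reason, gave 905 and 2717 units, 3.0-fold in the same direction. On the spike scale the difference of Ndufs5 was 1.18. Ndufb1, a membrane arm subunit, did not reach the floor on the dendritic cell array (77.6 units) and gave 251 units in eosinophils, at least 1.86-fold. Ndufb9, of the same arm, leaned to eosinophils at 1366 against 894 units (1.53-fold), and its other measured probe set differed by 1.87. Several accessory subunits did not separate the arrays: Ndufb3 gave 833 and 832 units, Ndufv3 gave 4103 and 4195 units, and Ndufs4, a subunit whose loss causes Leigh syndrome, gave 1404 and 1279 units, in dendritic cells and eosinophils in that order. For Ndufa7, 5 probe sets ranged from -0.92 to 1.04.

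Assembly factors of complex I, which help build the complex and are not part of it, were dim. Of 5 on the array, 4 were measured and their median of 0.16 turned negative under several scales (-0.05 with arrays centred on their median). No assembly factor was past 2-fold on the dendritic cell side. Ndufaf3 gave 169 units in dendritic cells against 406 units in eosinophils (2.40-fold, with the dimmer side in the range of background genes). Ndufaf5 was 1.51-fold brighter in dendritic cells and Ndufaf7 1.54-fold brighter in eosinophils. Ndufaf4 gave 167 units in dendritic cells and was below the floor in eosinophils, with a second probe set at 0.09, and Ndufaf1 lay under the floor on both arrays, at 107 and 87.0 units.

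Complex II, succinate dehydrogenase, is also an enzyme of the citric acid cycle, and none of its 4 subunits was 2-fold apart. All measured genes passed at 15.5% on the dendritic cell side and 19.0% on the other. The 4 subunits are too few to set the complex apart by this count. Sdha, the flavoprotein that oxidises succinate, gave 1138 units in dendritic cells against 977 units in eosinophils, and its second probe set leaned to eosinophils by 0.80. Sdhb, the iron-sulphur subunit, gave 1102 and 680 units, 1.62-fold brighter in dendritic cells. The membrane anchors leaned the other way, Sdhc at 250 and 407 units (1.63-fold) and Sdhd at 522 and 779 units (1.49-fold), each with a second probe set in the same direction. The median of the 4 was 0.18, close to that of all genes, and it changed sign to -0.10 when each array was centred on its median and to -0.86 on the spike scale.

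Complex III had a median of -1.30, which was -0.58 with the dimmest measured probe set of each gene. Of its 9 members, all measured, 6 (66.7%) were past 2-fold on the dendritic cell side and 2 (22.2%) on the eosinophil side. All measured genes passed at 15.5% and 19.0%, in that order. Uqcrq, a small subunit of the membrane part, gave 3662 units in dendritic cells against 381 units in eosinophils. That 9.61-fold difference was the largest of any member, but it rests on 1 bright probe set, since the other 3 were near or under the floor on both arrays, and averaging all 4 gave -0.79. Uqcr11 followed at 2209 and 391 units (5.65-fold), from a single probe set. Uqcr10, a further small subunit, gave 1534 and 625 units (2.46-fold), with its other measured probe set at -0.29.

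The electron-carrying subunits of complex III leaned the same way. Cyc1, cytochrome c1, gave 1505 units in dendritic cells against 595 units in eosinophils, 2.53-fold, and the Rieske iron-sulphur protein Uqcrfs1 gave 1212 and 813 units, 1.49-fold. The core proteins split. Uqcrc2 was 2.46-fold brighter in dendritic cells (3839 against 1559 units), with both probe sets past 2-fold. Uqcrc1 was 2.13-fold brighter in eosinophils (429 against 202 units), and its difference was 0.05 on the spike scale. Uqcrb, a small subunit near the ubiquinone site, was brighter in eosinophils on both probe sets, with 5713 units against 2555 units for the brighter one (2.24-fold). Its difference on the spike scale was 0.12.

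Cytochrome c, the soluble carrier between complexes III and IV and a trigger of apoptosis once released, was brighter in dendritic cells. Cycs gave 6243 units there and 1531 units in eosinophils, 4.08-fold, with its 3 probe sets from -2.03 to -0.86.

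Complex IV, cytochrome c oxidase, had 17 members on the array and 14 measured. Of the measured ones, 6 (42.9%) were past 2-fold on the dendritic cell side and 1 (7.14%) on the other. All measured genes passed at 15.5% and 19.0%, in that order. The median of complex IV was -0.30 and moved to 0.05 after quantile normalization, so the complex as a whole had no settled direction. The members parted into those well apart and those nearly equal. Cox4i1, the regulatory subunit in its widespread form, gave 5875 units in dendritic cells against 1463 units in eosinophils, 4.01-fold. Cox7a2l, listed as a factor of supercomplexes of complexes III and IV, gave 6131 and 1496 units, 4.10-fold. Its 3 probe sets lay between -2.06 and -1.90. Whether its protein acts so in this mouse strain was not tested. Cox6c (9149 and 2348 units, 3.90-fold) and Cox6b1 (12117 and 4033 units, 3.0-fold) passed 2-fold on both of their probe sets. Cox5b gave 47930 and 18790 units, 2.55-fold, on an _x_at probe set. Without _s_at and _x_at probe sets its difference was -0.67, under 2-fold.

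Other widespread subunits of complex IV were mostly close on both arrays by their brightest probe sets. Cox5a gave 1681 units in dendritic cells against 1802 units in eosinophils. Its other probe sets leaned to dendritic cells, at -0.83 and -0.77, and the mean over its probe sets gave -0.50. Cox6a1 gave 4256 and 3849 units, and Cox8a gave 2212 and 2382 units. Cox7a2 was 1.38-fold brighter in dendritic cells at 30446 against 22111 units. Ndufa4, named for complex I but now placed with complex IV, leaned to eosinophils at 2214 against 1554 units (1.43-fold). Cox7c, a small membrane subunit, did not reach the floor on the dendritic cell array (61.8 units) and gave 323 units in eosinophils, at least 2.40-fold, while its second probe set was under the floor on both arrays.

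Isoforms of complex IV known from muscle, testis or hypoxic tissue were dim throughout. The heart and muscle forms Cox6a2 and Cox8b and the testis form Cox8c lay under the floor on both arrays. Cox7a1, the muscle form of subunit 7a, gave 163 and 211 units. Cox4i2, the lung and hypoxia form of subunit 4, was under the floor in dendritic cells and gave 180 units in eosinophils. Cox6b2, the testis form of subunit 6b, gave 291 units in dendritic cells and 34.9 units, under the floor, in eosinophils, at least 2.16-fold. Each of these values has at least 1 side within the range of background genes.

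Complex V, the ATP synthase, had 17 members, all measured. Past 2-fold were 10 (58.8%) on the dendritic cell side and 1 (5.88%) on the eosinophil side. All measured genes passed at 15.5% and 19.0%, in that order. The complex V median of -1.19 stayed negative under every setting tried, from -2.23 to -1.03. In the catalytic head, 3 of 5 subunits passed 2-fold. Atp5e, the epsilon subunit of the central stalk, gave 24074 units in dendritic cells against 6320 units in eosinophils (3.81-fold), and Atp5d, the delta subunit, gave 18571 and 5136 units (3.62-fold). Atp5b, the catalytic beta subunit, was 2.29-fold brighter in dendritic cells (3646 against 1594 units). The alpha subunit Atp5a1 (12358 against 7829 units, 1.58-fold) and the gamma subunit Atp5c1 (7619 against 5635 units, 1.35-fold) did not pass 2-fold, though another probe set of Atp5a1 differed by -2.16 and another of Atp5c1 by 1.15.

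The membrane ring of complex V is built from subunit c, which 3 genes encode with different import sequences and the same mature protein. Of these, Atp5g1 and Atp5g2 were brighter in dendritic cells, at 3831 against 969 units (3.95-fold) and 7477 against 1667 units (4.49-fold). Atp5g3 gave 7928 and 6261 units, 1.27-fold. The 3 genes of 1 mature protein were thus not equally apart.

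In the remaining membrane part and the stalk of complex V, Atp5md, a small subunit linked to pairing of the enzyme into dimers, was furthest apart at 10893 units in dendritic cells against 2164 units in eosinophils (5.03-fold). Atp5j2 (3.62-fold), Atp5mpl (2.77-fold) and Atp5l (2.05-fold) were also brighter in dendritic cells. Atp5k, another subunit of the membrane part, leaned to eosinophils on all 3 probe sets, with 6813 against 4568 units (1.49-fold) on the brightest. In the peripheral stalk, Atp5o, which holds the head in place, was 2.44-fold brighter in dendritic cells at 3255 against 1333 units. Atp5pb, the b subunit of the same stalk, was 2.32-fold brighter in eosinophils at 4667 against 2015 units, while its second probe set differed by 0.13. Atp5j gave 1706 and 2011 units and Atp5h 8677 and 5223 units.

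**Figure D2:**
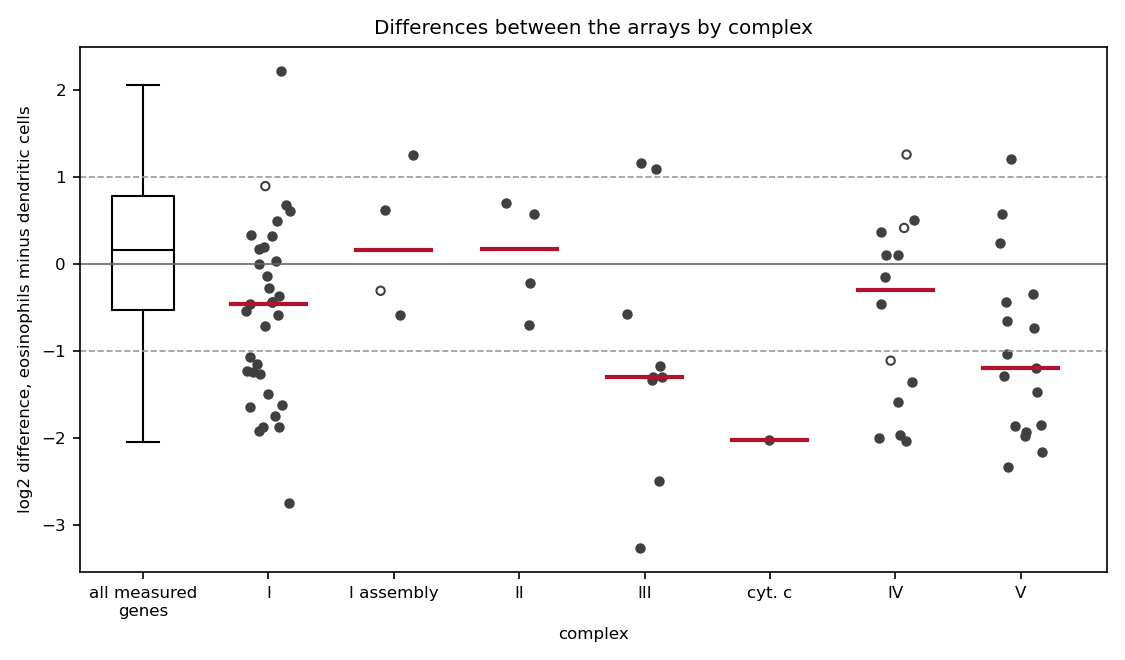
Log2 difference (eosinophils minus dendritic cells) of each measured member by complex, 1 point per gene, with open points where 1 array lay under the floor, red bars at the median of each group, and dashed lines at 2-fold; the box gives all 7994 measured genes (median, quartiles, and whiskers at the 5th and 95th percentiles). Medians of complexes III and V lie at -1.30 and -1.19, and those of complex II and the complex I assembly factors at 0.18 and 0.16.

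Of the 42 members past 2-fold, 4 lay within 0.15 on the log2 scale of that threshold, and 1 other member lay within 0.15 below it. That margin is narrower than the pooled SD of 0.57 between probe sets of 1 member. Calls further out, such as Atp5b at -1.19 and Cyc1 at -1.34, still lay within that SD of the threshold. Brighter members leaned more to dendritic cells, with a median of -1.19 over the 39 members of higher mean signal and -0.25 over the other 38, while both extremes, Uqcrq and Ndufs5, were among the dimmer ones. Across the 77 members above the floor on both arrays, the signed difference correlated with the mean log2 signal at Pearson's r = -0.35 and Spearman's rho = -0.36, as a description across genes of 1 pair of arrays. Across all 5389 genes above the floor on both arrays the same values were -0.07 and -0.06.

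Promoters of the members were searched because NRF1, the nuclear respiratory factor, is a known activator of respiratory chain genes. RefSeq windows of 300 bases (250 before and 50 after a gene's start, assembly GRCm38.p6) were found for 71 of the 86 members. The NRF1 core GCGCATGC, on either strand, stood in a window of 12 of the 71 members, or 16.9%, beside 3.05% of all 27025 genes with a window and 6.34% of the 6512 measured genes with one. The share was close on both sides of that distance, with 5 of 29 members past 2-fold on the dendritic cell side holding it (17.2%) and 7 of the 40 other measured members (17.5%). The ETS motif CCGGAAGT, bound by GABPA, was in 5 members (7.04%, with 4.31% of all genes and 9.64% of measured genes), and the YY1 core AAGATGGCG in 6 (8.45%, with 1.64% and 3.82%). A match is a description of the letters and does not show binding.

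The 120 bases before the start are given for 5 members, 5′ to 3′ on the gene's strand, with the NRF1 core or its reverse complement in capitals. Cycs and Atp5g2 show it in members over 4-fold brighter in dendritic cells, Sdhb in a member under 2-fold apart, Atp5k in a member leaning to eosinophils, and Ndufs5 is the member furthest towards eosinophils, with no match in its window. They lie at chr6:50566570-50566689 (minus strand), chr15:102671048-102671167 (minus), chr4:140961151-140961270 (plus), chr5:108434400-108434519 (minus) and chr4:123718187-123718306 (minus), in that order.
Cycs: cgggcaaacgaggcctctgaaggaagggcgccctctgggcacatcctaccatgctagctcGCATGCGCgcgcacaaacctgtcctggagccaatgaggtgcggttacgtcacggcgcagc
Atp5g2: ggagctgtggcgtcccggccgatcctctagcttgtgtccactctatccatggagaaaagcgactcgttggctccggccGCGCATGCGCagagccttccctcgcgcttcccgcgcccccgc
Sdhb: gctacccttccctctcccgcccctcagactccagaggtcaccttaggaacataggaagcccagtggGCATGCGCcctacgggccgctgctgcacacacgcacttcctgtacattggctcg
Atp5k: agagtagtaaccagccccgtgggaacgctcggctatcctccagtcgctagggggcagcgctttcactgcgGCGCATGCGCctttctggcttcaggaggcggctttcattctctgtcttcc
Ndufs5: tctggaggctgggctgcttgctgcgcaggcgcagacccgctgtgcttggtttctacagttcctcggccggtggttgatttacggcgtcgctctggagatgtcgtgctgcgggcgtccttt

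Genes around the respiratory chain did not shift alike. The shares of each list below stand beside 15.5% of all measured genes on the dendritic cell side and 19.0% on the eosinophil side. The transport of phosphate and ADP into mitochondria feeds the ATP synthase. Of 7 measured carriers and channels, 4 (57.1%) were past 2-fold on the dendritic cell side and 1 (14.3%) on the eosinophil side. Their median was -1.20. The ADP and ATP exchangers Slc25a4 (3103 units in dendritic cells against 193 units in eosinophils, 16-fold) and Slc25a5 (12377 and 2540 units, 4.87-fold) and the phosphate carrier Slc25a3 (10552 and 2350 units, 4.49-fold) were the furthest apart. The outer membrane channel Vdac1 gave 29157 and 28846 units, and Vdac3 was 3.20-fold brighter in eosinophils. The median of this short list depended on the probe set, at -0.055 with the dimmest measured one.

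Citric acid cycle enzymes had a median of -0.42, which became 0.10 with the dimmest measured probe set. Of 15 measured, 3 were past 2-fold on the dendritic cell side (20.0%, near the 15.5% of all measured genes) and 1 on the other (6.67%). The 3 were the isocitrate dehydrogenase subunit Idh3g (3.17-fold), citrate synthase Cs (2.39-fold) and fumarase Fh1 (2.26-fold), and the 1 was Dlat, a subunit of pyruvate dehydrogenase, at 154 against 354 units (2.30-fold). Protein import into mitochondria had 24 measured genes and a median of -0.39, which was -0.11 with the dimmest measured probe set. Of them, 8 (33.3%) were past 2-fold on the dendritic cell side and 2 (8.33%) on the eosinophil side. They included the chaperonin partner Hspe1 (4.20-fold) and the receptor Tomm70a (3.17-fold) on the dendritic cell side and Timm10b (5.81-fold) on the eosinophil side. Glycolysis genes had 16 measured, 7 past 2-fold on the dendritic cell side (43.8%) and 1 on the other (6.25%). Their median was -0.74, with values from -1.33 with no floor to -0.26 with the dimmest measured probe set. Pfkp, a phosphofructokinase, was 9.90-fold brighter in dendritic cells, and the glucose transporter Slc2a3 was 6.41-fold brighter in eosinophils. Pgk1, phosphoglycerate kinase, gave 11357 against 2893 units, 3.93-fold brighter in dendritic cells.

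Assembly factors named outside the member rule had a median of 0.25 that crossed 0 under several settings (-0.12 as the mean over probe sets). Of 29 measured, Cox19 (2.71-fold) and Sdhaf1 (2.77-fold) were past 2-fold on the dendritic cell side (6.90%) and Cox15 (2.81-fold) on the other (3.45%). Mitochondrial dynamics and cristae genes had a median of 0.16, or -0.12 with arrays centred on their median. Of 14 measured, 3 (21.4%) were past 2-fold on the dendritic cell side and 2 (14.3%) on the other, beside 15.5% and 19.0% of all measured genes. Within that list Chchd3, of the cristae junction complex, was 4.68-fold brighter in dendritic cells. Oma1, a protease of the inner membrane, was 3.05-fold brighter in eosinophils (425 against 139 units), with the dimmer side in the range of background genes. Phb2, a prohibitin of the inner membrane, was 3.04-fold brighter in dendritic cells.

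Genes that maintain and transcribe mitochondrial DNA lay on the other side of 0, with a median of 0.84 over 10 measured genes that was 0.50 with the floor from background genes. They were dim in dendritic cells, where 4 of the 10 were under the floor and only 4 passed 191 units. The background genes themselves had a median of 0.46 over 13 measured, 9 of them brighter in eosinophils. The part of low signal in the medians of this paragraph was not tested. No gene of this list was past 2-fold on the dendritic cell side, where 15.5% of all measured genes passed. On the eosinophil side 1 of the 10 passed, a smaller share than the 19.0% of all measured genes. That gene was the DNA polymerase Polg, at least 6.42-fold at 865 units. Polrmt, the mitochondrial RNA polymerase, was 1.92-fold and the elongation factor Tefm at least 1.90-fold brighter in eosinophils. Tfam, which packages mitochondrial DNA and takes part in its transcription, gave 185 units in dendritic cells against 341 units in eosinophils, 1.84-fold. Its dendritic cell signal, like the 140 units of Polrmt, was under the 191 units of background genes. Regulators of mitochondrial biogenesis had a median of 0.71 over 13 measured genes, the highest of the settings tried. It was 0.10 as the mean over probe sets, 0.24 with arrays centred on their median and 0.34 with the floor from background genes. No regulator was past 2-fold on the dendritic cell side and 3 were on the other, or 23.1% beside 19.0% of all measured genes. The 3 were Foxo3 (9.96-fold), Sp1 (4.43-fold) and Hif1a (4.40-fold), which have many other functions. Nrf1 and Gabpa gave 176 and 639 units in dendritic cells and 288 and 1204 units in eosinophils, 1.64-fold and 1.88-fold. The 176 units of Nrf1 were under the 191 units of background genes. The coactivator Ppargc1a was dim on both arrays at 139 and 238 units. On the spike scale the medians of the mitochondrial DNA genes and of the regulators crossed 0, to -0.16 and -0.42.

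Cytosolic ribosomal proteins had a median of -1.49, with 30 of 45 measured genes (66.7%) past 2-fold on the dendritic cell side and 0 on the other. Rplp0 (8.80-fold), Rpl6 (7.79-fold) and Rps28 (7.11-fold) were furthest apart. Mitochondrial ribosomal proteins had 18 and 11 of 72 and a median of -0.19, which was 0.03 with the dimmest measured probe set. Mrpl42 (5.55-fold), Mrpl52 (5.41-fold) and Mrps7 (4.33-fold) were furthest apart there, all brighter in dendritic cells. The part of the shift of cytosolic ribosomal protein transcripts in the values of the members was not tested. The housekeeping list had a median of 0.03 over 19 genes.

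**Figure D3:**
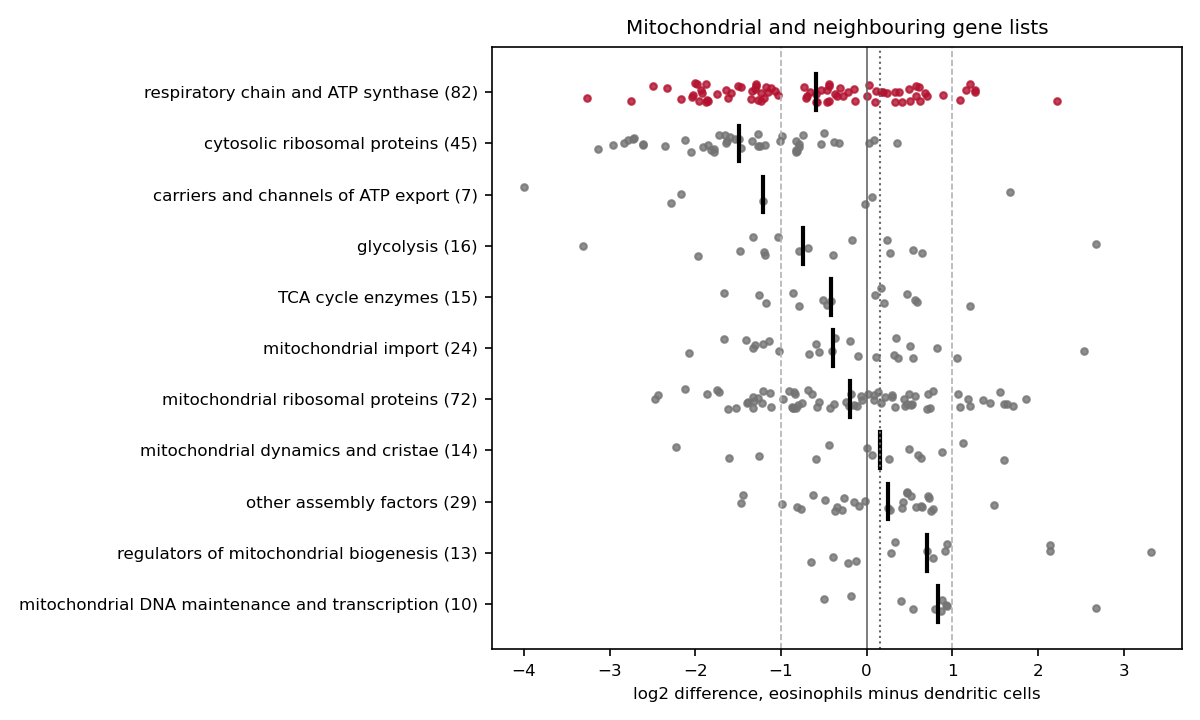
Log2 difference (eosinophils minus dendritic cells) of each measured gene of the members (red) and of 10 other lists (grey), with the number of measured genes in parentheses, black bars at list medians, a dotted line at the median of all genes (0.16) and dashed lines at 2-fold. The members and the cytosolic ribosomal proteins lie mostly left of 0, while regulators and mitochondrial DNA genes lie mostly right of it.

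**Figure D4:**
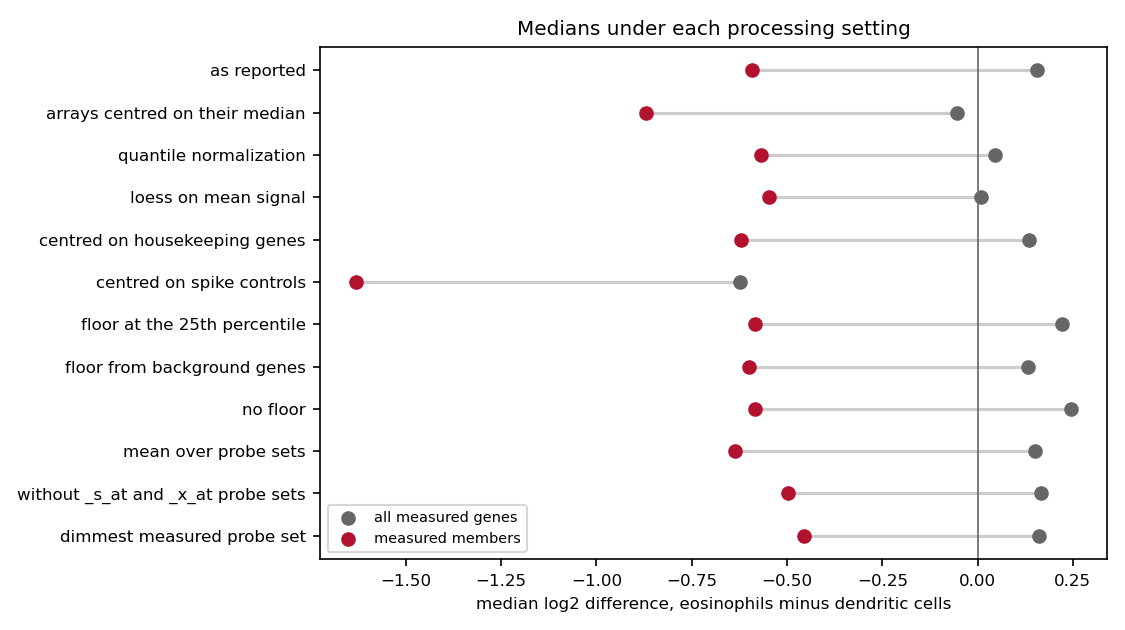
Median log2 difference (eosinophils minus dendritic cells) of the measured members (red) and of all measured genes (grey) as reported and under 11 other settings of scale, floor or probe set. The red point lies to the left of the grey one in each line, and centring on the spike controls moves both, to -1.63 and -0.62.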

How the data were processed

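RNA was labelled with a biotin-based cDNA kit, per the labels' protocols. The authors deposited 1 linear intensity for each probe set, and the submitters' processing notes name MAS5 version 5.0. The mean without the lowest and highest 2% of signals was 500.3 units for dendritic cells and 500.2 units for eosinophils, so both arrays share a global scale. Detection calls and probe-level data were not used here, and the number of arrays limits the precision.

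Of 22690 probe sets, 64 were controls, 691 named several genes and 1606 were not listed in the platform annotation. Symbols of 20351 of 20380 single-gene probe sets were updated by Entrez identifier with RefSeq (GRCm38.p6). For 8 probe sets that name a member with another gene, no value entered the counts. Gene names, roles, lists and motifs were chosen with earlier results of these data known. Any member could be named; values were given for core subunits, for the extremes of each complex, for isoform sets, for members under the floor and for members whose probe sets differ, and from the other lists for the genes furthest apart. Further alternatives were other scales, floors (none, the 25th percentile, background genes), probe set choices and memberships, with a loess span of 0.3. Python 3.11.15, numpy 2.4.6, pandas 2.3.3 and statsmodels 0.14.6 were used, and the count procedure was tested on simulated data.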

Additional observations from a re-analysis of the deposited data

How the results depend on the processing

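With 1 array for each population no array could be left out. No paired analysis was possible because each group has 1 array. The count of members at least 2-fold brighter in dendritic cells was 36 and lay between 29 and 37 under 12 of 13 alternatives, and was 57 on the spike scale. Its counterpart in eosinophils was 6 and became 2 with arrays centred on their medians, 1 on the spike scale and 10 with no floor. At 4-fold, the 8 members brighter in dendritic cells became 17 with median centring, 5 with quantile normalization, 5 with loess and 35 on the spike scale. The 1 member 4-fold brighter in eosinophils became 0 with median centring, 0 on the spike scale, 2 with the floor at the 25th percentile and 4 with no floor. On the spike scale, which lowers each log2 difference by 1.04 before the floor, the medians were -1.63 for all members, -1.50 for complex I, -0.86 for complex II, -2.34 for complex III, -3.07 for cytochrome c, -1.34 for complex IV and -2.23 for complex V. The other lists stood there at -0.61 (other assembly factors), -1.46 (citric acid cycle), -1.45 (import), -2.73 (carriers and channels), -0.16 (mitochondrial DNA), -0.42 (regulators), -0.87 (dynamics and cristae), -1.55 (glycolysis), -1.21 (mitochondrial ribosome) and -2.52 (cytosolic ribosome). The carrier list also moved to -1.96 with median centring and to -0.055 with the dimmest measured probe set. Cox5b reversed to 0.26 with its dimmest measured probe set. Apart from the spike scale, the median of the complex I assembly factors ranged from -0.31 to 0.63, that of complex II from -0.10 to 0.73 and that of complex IV from -0.58 to 0.05, so their directions are not settled. Causes were not tested where a setting's own construction does not show them. Signals near the floor limit the assembly factors and tissue isoforms most.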
